A study of Danio rerio with 6 samples.

Results

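Genes of the core spliceosome were examined in RNA-seq of juvenile zebrafish gonads that lacked or carried eIF4E1b, a germline paralog of the cap-binding translation factor eIF4E. Members were picked by symbol alone, under a rule set with earlier results of these data known. They are the genes whose symbols start with *snrp*, *sf3a*, *sf3b* or *prpf*, together with *lsm2* to *lsm8*, and 40 of the 32520 genes in the count tables met this rule. Of these 40 genes, 38 had enough reads to be tested. Of the samples, 3 were *eif4e1b* -/- and 3 were *eif4e1b* +/+, all carried the tg(ziwi:GFP) transgene, and all came from juvenile fish selected for high GFP in the gonad. The *ziwi* promoter drives GFP in germ cells. Mutant and wild-type fish came from the same incrosses, and the *eif4e1b* lesion was a CRISPR-Cas9 deletion in the third exon. More than one deletion allele was made in the study, and the labels do not say which of them these samples carried. The age of the fish is not stated. Each sample pooled 3 gonads, and the labels give all 6 as ovary from females, whereas most mutants of this line grew up as males and mutant gonads with strong GFP could already hold spermatocytes.

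Introns are removed from pre-mRNA by the spliceosome, which is built from small nuclear ribonucleoproteins (snRNPs), each a small nuclear RNA (snRNA) with its proteins. The U1 snRNP recognises the 5′ splice site and the U2 snRNP the branch point. The U4/U6.U5 tri-snRNP then joins, and the Prp19 complex and further factors bring the assembly to catalysis. A ring of Sm proteins encircles the U1, U2, U4 and U5 snRNAs, a related ring of LSm proteins binds the 3′ end of U6, and frog oocytes are known to store snRNP proteins for the embryo.

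Total counts ranged from 5539470 to 8233080 in mutant samples and from 11771342 to 13362230 in wild-type samples. The targeted gene *eif4e1b* had 6.73, 1.396 and 3.202 counts per 1000000 (CPM, scaled with TMM factors, the trimmed mean of log ratios between libraries) in mutant gonads, against 126, 103 and 120 CPM in wild-type gonads. The tissue label was compared with marker lists, which were chosen with earlier results of these data known. Among all tested genes, 32.0% were lower in mutant gonads and 37.5% were higher. All 25 oocyte markers were lower in mutant gonads, with summed levels of 104 to 693 CPM in mutant samples and 17743 to 23254 CPM in wild-type samples, and none of the 25 was at 0 in all 3 samples of a genotype. Of the testis somatic markers, 8 of 11 tested were higher in mutant gonads and 1 was lower (*cyp11a1*). Of 11 genes in the ovarian somatic list, 9 were tested. The listed *cyp19a1a* and *foxl2l* had too few reads to be tested. Of the 9, 6 were higher, namely *fshr*, *lhcgr*, *wnt4*, *inha* and both genes with the symbol *nr5a1*. The ovarian list also held *foxl2*, which was lower (log2 fold change -1.66), and a further gene of that symbol that did not pass (-1.22). All 23 exocrine pancreas markers were higher (50253 to 86221 CPM in mutant samples, 116 to 480 CPM in wild-type samples), and 132 markers of tissues outside the gonad took 9.56% to 23.5% of mutant counts and 0.117% to 0.548% of wild-type counts. In mutant 2, liver markers summed to 114760 CPM and intestine markers to 96672 CPM. The wild-type libraries thus held oocyte transcripts in all 3 samples, whereas the mutant libraries held few of them and many from other tissues. Wild-type 1 stood apart from the other wild-type samples in its testis somatic markers (1161 CPM, against 506 and 547 CPM in wild-type 2 and 3) and its meiotic prophase markers (463 CPM, against 130 and 154 CPM). The meiotic prophase sum of mutant 2 was lower, at 425 CPM. In the testis somatic sums, *cyp11a1* made up 516, 234 and 272 CPM and *cyp17a1* 333, 236 and 236 CPM in wild-type 1, 2 and 3. Neither gene was higher in mutant gonads. Among markers that were higher there, *gsdf* had 205, 12.7 and 15.7 CPM and *amh* 56.9, 1.94 and 2.34 CPM in these wild-type samples. In *sox9b* wild-type 1 was the lowest, at 5.36 CPM, against 14.4 and 13.4 CPM. In such bulk samples, fewer cells of a type and less RNA per cell cannot be told apart.

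Most core spliceosome genes were lower in mutant gonads with TMM factors. With library totals alone 14 of the 38 tested genes fell, and with upper-quartile factors 16. Of all tested genes, 18.6% and 19.9% fell with these 2 scalings. The values in the rest of this paragraph are with TMM factors. Of the 38 tested genes, 28 fell, 1 rose and 9 did not pass the threshold (adjusted p under 0.05 by the quasi-likelihood test of edgeR, with Benjamini-Hochberg adjustment across the 20091 genes tested). Among all tested genes, 32.0% fell and 37.5% rose, or 69.5% in either direction. The median log2 fold change of the 38 genes was -1.04, beside 0.23 for all tested genes, and 36 of the 38 lay under that median of all genes. In 29 genes every mutant sample was below every wild-type sample (35.4% of all tested genes), in 2 genes every mutant sample was above (39.8%), and in 7 the groups overlapped. Level matters for this reading, because all 38 tested genes averaged at least 10 CPM. Of the 11254 genes at that level or above, 49.9% fell and 22.6% rose, against 73.7% and 1 gene among the 38. The median log2 fold change of those 11254 genes was -0.68, so the difference of the members' median from it was -0.36, and 25 of the 38 were under it.

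The spread among members was wide. The lowest log2 fold change was -5.33 in *lsm2* and the highest 0.73 in *prpf39*, and 20 genes had a called log2 fold change under -1. Without *lsm2*, the median was -1.03 and 27 of 37 genes fell. The summed level of all members was 3421, 3033 and 3386 CPM in mutant samples, against 5934, 5501 and 5722 CPM in wild-type samples. As a share of raw counts, without any scaling factor, the members took 0.504%, 0.237% and 0.429% of mutant libraries and 0.498%, 0.507% and 0.495% of wild-type libraries. In this raw share mutant 1 lay within the wild-type range, and mutant 2, the library with the largest share of other-tissue marker counts, was the lowest. Mutant 2 was also the lowest mutant sample in 24 of the 38 genes on the TMM scale. Without mutant 2, 28 genes were lower and 1 higher, and without wild-type 1, 26 were lower and 1 higher. The 132 other-tissue markers took 9.56% and 15.5% of counts in mutants 1 and 3. These shares leave out all other transcripts of those tissues. The part of the other-tissue RNA was not tested.

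**Figure D1:**
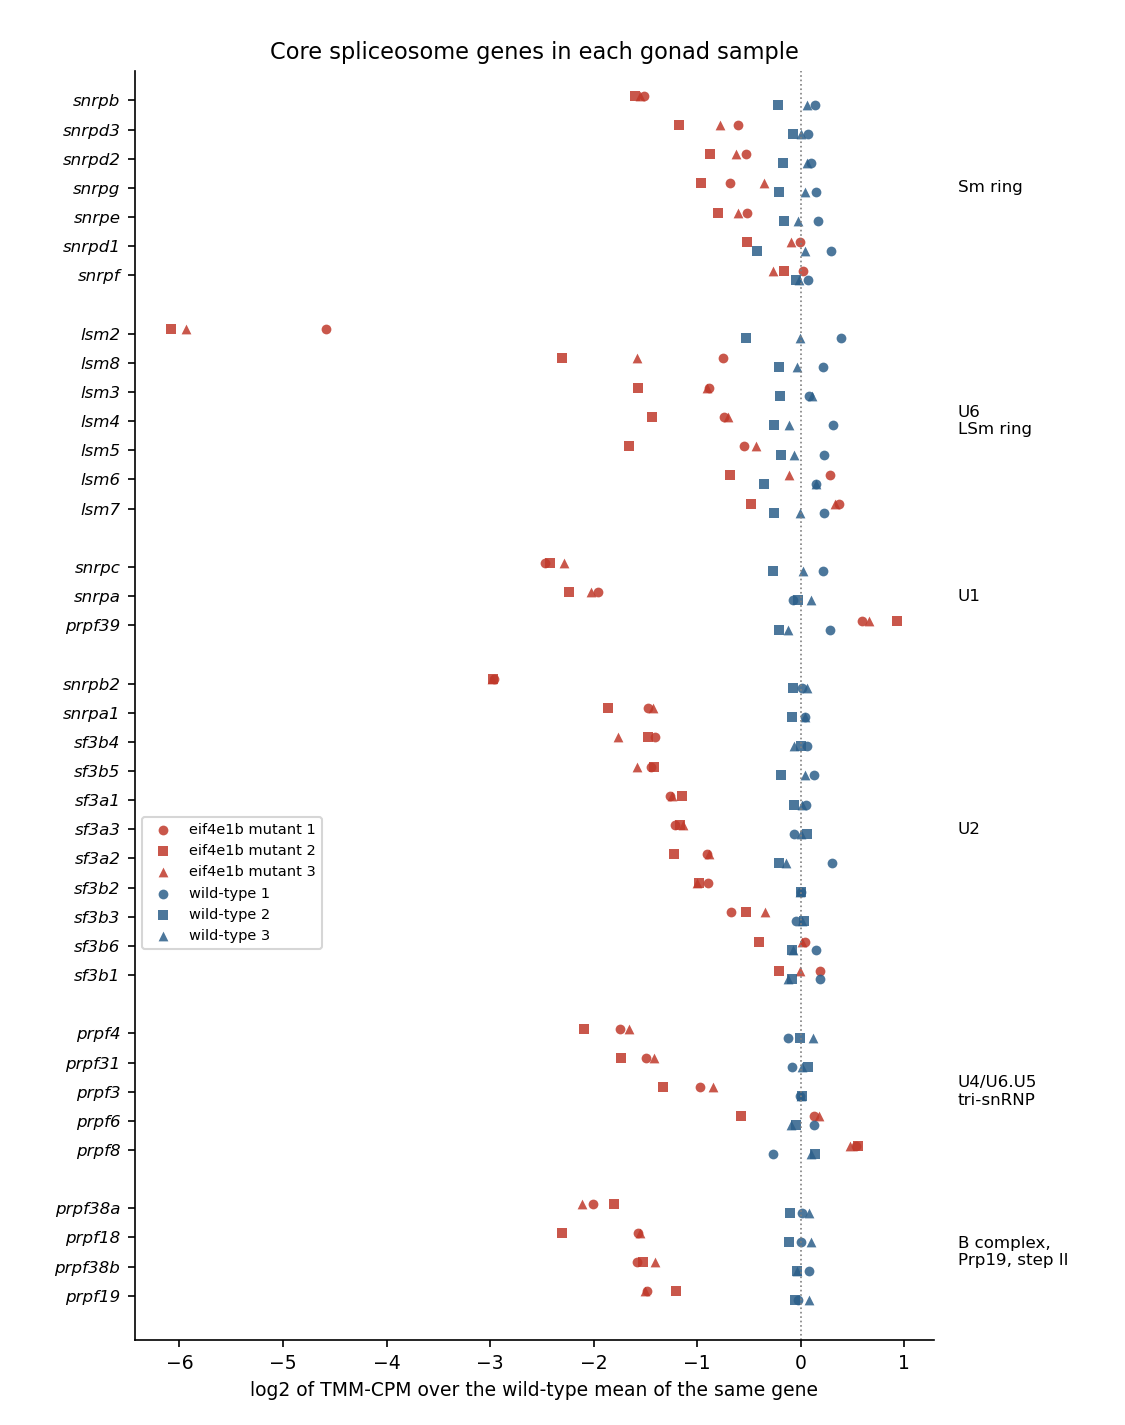
Level of 37 of the 38 tested core spliceosome genes in each gonad sample, as the log2 of TMM-CPM over the wild-type mean of that gene (dotted line at 0), with mutant samples in red, wild-type samples in blue and replicates 1, 2 and 3 as circles, squares and triangles. Genes are grouped by snRNP. In 28 of these 37 genes the 3 mutant samples lie left of the 3 wild-type samples, as in 35.4% of all tested genes. The gene *lsm2* lies farthest left. In 2 genes, *prpf39* and *prpf8*, the mutant samples all lie to the right, as in 39.8% of all tested genes.

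The Sm ring is shared by the U1, U2, U4 and U5 snRNPs, and each ring takes 1 copy of each of its 7 proteins. Of the 7 tested genes, 5 fell (71.4%) and none rose, with a median log2 fold change of -0.64. Of all tested genes of at least 10 CPM, 49.9% fell, with a median of -0.68. The median of the ring was thus close to that of genes at its level. The lowest log2 fold change was that of *snrpb*, which encodes SmB. Its level was 56.4, 53.1 and 55.0 CPM in mutant gonads and 177, 139 and 168 CPM in wild-type gonads, so that the highest mutant sample was far under the lowest wild-type sample. The log2 fold change of *snrpb* was -1.56 (SE 0.18), with an adjusted p of 0.000669 by edgeR's quasi-likelihood test.

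The other Sm genes moved less. The level of *snrpd3*, which encodes SmD3, was 76.3, 51.2 and 67.8 CPM in mutant gonads and 122, 110.2 and 116 CPM in wild-type gonads, a log2 fold change of -0.83 (SE 0.20). For *snrpd2* (SmD2) the values were 45.8, 36.0 and 42.7 CPM in mutant gonads and 70.5, 58.4 and 68.8 CPM in wild-type gonads, with a log2 fold change of -0.67 (SE 0.18). The groups did not overlap in either gene. The level of *snrpg* (SmG) was 16.9, 14.0 and 21.3 CPM in mutant gonads and 30.2, 23.6 and 27.9 CPM in wild-type gonads, and that of *snrpe* (SmE) was 38.7, 32.0 and 36.4 CPM in mutant gonads and 62.6, 49.6 and 54.7 CPM in wild-type gonads. Both had a log2 fold change of -0.64 (SE 0.23 for *snrpg* and 0.18 for *snrpe*), also without overlap. With upper-quartile factors, *snrpd2*, *snrpg* and *snrpe* turned to 0.03, 0.04 and 0.05, so the direction of these 3 genes depended on the scaling. The call on *snrpg* was the weakest of the ring: its adjusted p by edgeR's quasi-likelihood test was 0.0410, and it was lost without wild-type 1, wild-type 3, mutant 1 or mutant 2, with a smallest adjusted p of 0.0221 over the alternatives. The calls on *snrpd2* and *snrpe* were also lost without wild-type 3, which left 2 Sm genes lower in place of 5.

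For *snrpf* (SmF) and *snrpd1* (SmD1) the groups overlapped. The level of *snrpf* was 169, 149 and 138 CPM in mutant gonads and 174, 160.4 and 164 CPM in wild-type gonads, a log2 fold change of -0.13 (SE 0.18). That of *snrpd1* was 46.8, 32.9 and 44.2 CPM in mutant gonads and 57.7, 35.1 and 48.5 CPM in wild-type gonads, with a log2 fold change of -0.19 (SE 0.25). Neither passed the threshold here, although *snrpf* passed it as higher in mutant gonads (0.56) with upper-quartile factors. Within the ring, therefore, the mRNAs for a complex that holds equal numbers of each protein were not lowered by the same factor. Protein levels were not analysed here. The ratio of raw *snrpb* to *snrpf* counts, which needs no scaling between libraries, was 0.334, 0.356 and 0.398 in mutant samples and 1.02, 0.864 and 1.025 in wild-type samples. A further gene with the symbol *snrpd3* (ENSDARG00000013800) had counts of 0, 1 and 0 in mutant samples and of 1, 1 and 3 in wild-type samples and was not tested. The *snrpd3* described above is ENSDARG00000076283.

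The LSm2 to LSm8 ring binds U6 snRNA in the nucleus, whereas LSm2 to LSm7 also form a cytoplasmic ring with LSm1 that acts in mRNA decay. Of the 7 tested genes, 4 fell (57.1%), 3 did not pass and none rose, with a median log2 fold change of -0.92. Among all tested genes of at least 10 CPM, 49.9% fell and the median was -0.68. The gene *lsm2* had the lowest log2 fold change of all members. Its raw counts were 25, 7 and 9 in mutant samples and 1060, 553 and 844 in wild-type samples. On the TMM scale this was 3.06, 1.09 and 1.201 CPM in mutant gonads and 96.3, 51.0 and 73.0 CPM in wild-type gonads. The fall was 40.3-fold, with a log2 fold change of -5.33 (SE 0.50) and an adjusted p of 0.000382 by edgeR's quasi-likelihood test. Only 1.44% of tested genes had a lower log2 fold change. Among the mutant samples *lsm2* was highest in mutant 1, which also had the highest summed oocyte markers (693 CPM in mutant 1, against 104 and 142 CPM in mutants 2 and 3), and whether the 2 values are linked was not tested. The symbol *lsm2* also belongs to ENSDARG00000070867, which had 0 counts in all 6 samples, and the reads described here were assigned to ENSDARG00000103066.

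The ring's other members were far closer to wild type. The level of *lsm8*, the subunit that marks the nuclear ring, was 11.9, 4.03 and 6.67 CPM in mutant gonads and 23.3, 17.2 and 19.5 CPM in wild-type gonads, a log2 fold change of -1.40 (SE 0.40). This call was lost without mutant 3. For *lsm3*, the values were 16.3, 10.1 and 16.01 CPM in mutant gonads and 31.7, 26.1 and 32.3 CPM in wild-type gonads (log2 fold change -1.08, SE 0.25). For *lsm4*, they were 67.2, 41.6 and 69.1 CPM in mutant gonads and 139, 93.9 and 104 CPM in wild-type gonads (log2 fold change -0.92, SE 0.27). In these 3 genes every mutant sample was below every wild-type sample, as in 35.4% of all tested genes. Mutant 2 was the lowest sample in each of the 3.

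In *lsm5* the mutant samples (45.2, 20.9 and 49.1 CPM) were all below the wild-type samples (77.0, 58.0 and 63.2 CPM), but the log2 fold change of -0.78 (SE 0.33) missed the threshold, with an adjusted p of 0.0722 by edgeR's quasi-likelihood test (0.0319 to 0.814 over the alternatives). The groups overlapped in *lsm6* and *lsm7*. The level of *lsm7* was 47.0, 26.2 and 46.0 CPM in mutant gonads and 42.7, 30.4 and 36.4 CPM in wild-type gonads, a log2 fold change of 0.12 (SE 0.28), with mutant 2 below and the other mutant samples above all wild-type samples. The level of *lsm6* was 32.7, 16.8 and 24.8 CPM in mutant gonads and 29.9, 21.1 and 29.8 CPM in wild-type gonads, with a log2 fold change of -0.12 (SE 0.29), and here too mutant 2 was below and mutant 1 above every wild-type sample. Mutant 2 was the lowest mutant sample in 7 of 7 LSm genes and wild-type 2 the lowest wild-type sample in 7 of 7. The same held for 6 and 7 of the 7 Sm genes, and for 24 and 25 of all 38 members. The count ratio of *lsm2* to *lsm7* was 0.0651, 0.0414 and 0.0261 in mutant samples, against 2.25, 1.68 and 2.00 in wild-type samples.

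Among proteins of the U1 snRNP and its associated factors, *snrpc* and *snrpa* fell and *prpf39* rose, with no overlap between the groups in any of them. The gene *snrpc* encodes a U1 protein that helps the snRNP to hold the 5′ splice site. Its level was 17.8, 18.3 and 20.1 CPM in mutant gonads and 114, 81.4 and 99.7 CPM in wild-type gonads. This was a 5.24-fold fall, with a log2 fold change of -2.39 (SE 0.20) and an adjusted p of 0.000316 by edgeR's quasi-likelihood test. The gene *snrpa* encodes the U1 protein that binds a stem-loop of U1 snRNA, and had 30.6, 25.3 and 29.2 CPM in mutant gonads and 113, 117 and 127 CPM in wild-type gonads. Its log2 fold change was -2.07 (SE 0.17), a 4.19-fold fall. Both genes fell more than the median of the members.

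The U1-associated factor *prpf39* moved the other way. Its yeast counterpart Prp39 is a U1 protein. The level of *prpf39* was 207, 263 and 217 CPM in mutant gonads and 168, 119 and 127 CPM in wild-type gonads, with all mutant samples above all wild-type samples. With TMM factors it was the only member that passed the threshold as higher, with a log2 fold change of 0.73 (SE 0.23) and an adjusted p of 0.0236 by edgeR's quasi-likelihood test (0.00256 to 0.135 over the alternatives). This call was lost without wild-type 2, wild-type 3 or mutant 3, with log2 fold changes from 0.59 to 0.86 when any single sample was left out.

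The U2 snRNP had 11 members, of which 9 fell (81.8%, beside 49.9% of all tested genes of at least 10 CPM) and none rose. Their median log2 fold change was -1.17. The 2 proteins bound to a stem-loop of U2 snRNA as a heterodimer are encoded by *snrpb2* and *snrpa1*. The level of *snrpb2* was 16.7, 16.6 and 16.4 CPM in mutant gonads and 131, 123 and 135 CPM in wild-type gonads. On the TMM scale the means were 16.6 ± 0.129 CPM in mutant gonads and 129.9 ± 6.19 CPM in wild-type gonads (SD, n = 3 each), a 7.84-fold fall. The mutant values came from 136, 107 and 123 raw counts, whose counting error alone is larger than that mutant SD. The log2 fold change of *snrpb2* was -2.97 (SE 0.16), with an adjusted p of 0.000286 by edgeR's quasi-likelihood test. Its partner *snrpa1* had 42.5, 32.6 and 44.0 CPM in mutant gonads and 122, 112 and 121 CPM in wild-type gonads, a log2 fold change of -1.57 (SE 0.19). Both genes of the dimer fell, but not by the same factor. Counts of *snrpb2* over *snrpa1* were 0.392, 0.509 and 0.373 in mutant samples and 1.08, 1.102 and 1.115 in wild-type samples, without overlap.

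SF3A is a trimer that joins the U2 snRNP before the branch point is bound. With TMM factors all 3 of its genes fell, beside 49.9% of all tested genes of at least 10 CPM. All 3 calls were lost with library totals alone, and that on *sf3a2* also with upper-quartile factors. The level of *sf3a1* was 103, 112 and 105 CPM in mutant gonads and 258, 237 and 251 CPM in wild-type gonads, and that of *sf3a3* was 102, 106 and 108 CPM in mutant gonads and 227, 249 and 238 CPM in wild-type gonads. For *sf3a2* it was 93.8, 75.2 and 94.8 CPM in mutant gonads and 216, 152 and 159 CPM in wild-type gonads. The log2 fold changes were -1.22 (SE 0.18) for *sf3a1*, -1.17 (SE 0.17) for *sf3a3* and -0.997 (SE 0.22) for *sf3a2*. The 3 genes of the trimer thus lay within about 1 SE of each other.

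SF3B contacts the branch point and the sequence around it. Of its 6 genes, 4 fell (66.7%, beside 49.9% of all tested genes of at least 10 CPM) and 2 did not pass. Their log2 fold changes spanned -1.54 to 0.00, a wider range than in SF3A. The level of *sf3b4*, whose product binds pre-mRNA upstream of the branch point, was 36.6, 35.1 and 28.5 CPM in mutant gonads and 101, 97.6 and 93.0 CPM in wild-type gonads, a log2 fold change of -1.54 (SE 0.18). The small subunit gene *sf3b5* had 10.5, 10.7 and 9.60 CPM in mutant gonads and 31.4, 25.1 and 29.6 CPM in wild-type gonads, a log2 fold change of -1.48 (SE 0.20). For *sf3b2*, which contacts SF3B4, the levels were 266, 249.6 and 247 CPM in mutant gonads and 495, 497 and 493 CPM in wild-type gonads, with a log2 fold change of -0.96 (SE 0.21). In all 3 every mutant sample was below every wild-type sample, as in 35.4% of all tested genes.

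The scaffold gene *sf3b3* was lower by less, at 128, 141.5 and 161 CPM in mutant gonads and 198, 209 and 205 CPM in wild-type gonads. Its log2 fold change was -0.51 (SE 0.19), with an adjusted p of 0.0439 by edgeR's quasi-likelihood test (0.00953 to 0.843 over the alternatives). The call was lost when mutant 1 or any wild-type sample was left out, and the direction turned to 0.18 with upper-quartile factors. The largest subunit, *sf3b1*, which holds the branch-point helix and is often mutated in human blood cancers, had 299, 228 and 261 CPM in mutant gonads and 298, 248 and 242 CPM in wild-type gonads. Its log2 fold change was 0.00 (SE 0.22). The level of *sf3b6*, which binds SF3B1 at the branch point, was 115, 84.2 and 113 CPM in mutant gonads and 124, 106 and 106 CPM in wild-type gonads. Its log2 fold change was -0.10 (SE 0.20), and it passed as higher (0.58) with upper-quartile factors. In *sf3b1* and *sf3b6* the groups overlapped. The *sf3b4* to *sf3b1* count ratio was 0.122, 0.154 and 0.109 in mutant samples and 0.340, 0.393 and 0.385 in wild-type samples, and the *sf3b5* to *sf3b6* ratio was 0.0919, 0.127 and 0.0850 in mutant samples and 0.254, 0.237 and 0.279 in wild-type samples.

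**Figure D2:**
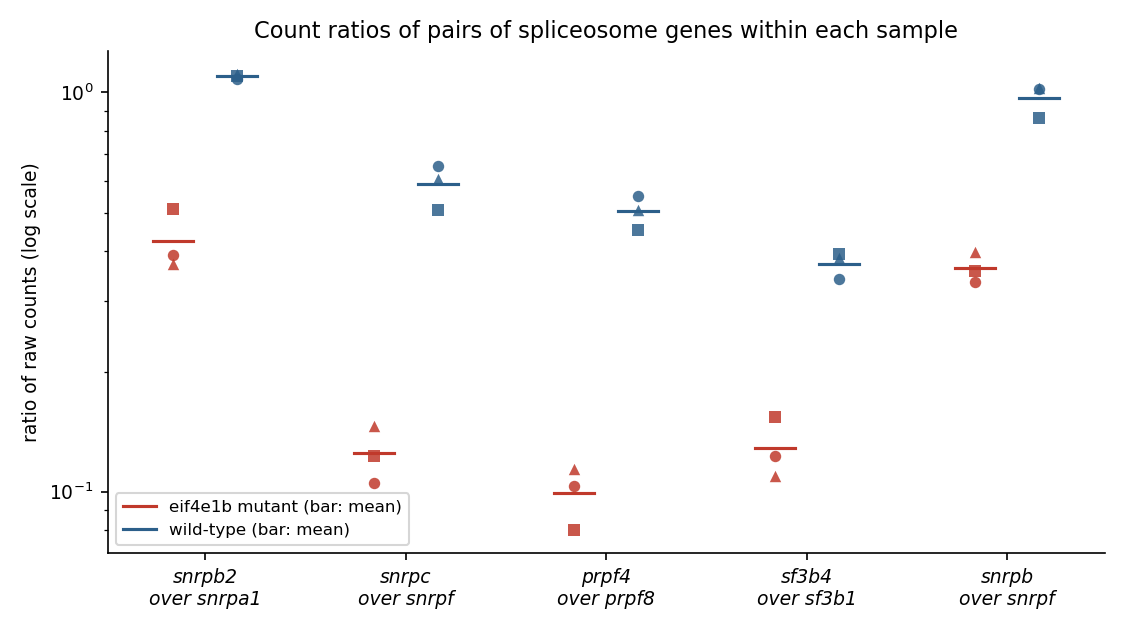
Ratios of raw counts of pairs of core spliceosome genes within each sample (log axis), with mutant samples in red at the left and wild-type samples in blue at the right of each pair, replicates 1, 2 and 3 as circles, squares and triangles, and bars at the mean. Such ratios carry no scaling factor. In all 5 pairs the 3 mutant samples lie below the 3 wild-type samples, as for *snrpb2* over *snrpa1* (0.373 to 0.509 in mutant samples, 1.08 to 1.115 in wild-type samples).

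The pairs were chosen with the fold changes known, to set a member that moved against one of the same particle that did not or moved less, so no p is attached to them. With 3 samples against 3, an exact permutation test cannot go below a two-sided p of 0.1.

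In the U4/U6.U5 tri-snRNP, 3 of 5 genes fell (60.0%, beside 49.9% of all tested genes of at least 10 CPM) and none passed as higher. The median log2 fold change was -1.04. The genes that fell encode proteins of the U4/U6 part. The level of *prpf4* was 33.4, 26.2 and 35.5 CPM in mutant gonads and 103, 112 and 122 CPM in wild-type gonads, a log2 fold change of -1.82 (SE 0.19). That of *prpf31*, which holds U4 and U6 together and whose mutations cause retinitis pigmentosa in humans, was 49.8, 42.0 and 52.7 CPM in mutant gonads and 132, 148 and 142 CPM in wild-type gonads, a log2 fold change of -1.54 (SE 0.18). For *prpf3*, which forms a complex with PRPF4, the values were 136, 106 and 148 CPM in mutant gonads and 264, 269 and 266 CPM in wild-type gonads (log2 fold change -1.04, SE 0.21). Mutant 2 was the lowest sample in all 3 genes. In each, every mutant sample was below every wild-type sample, as in 35.4% of all tested genes.

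The 2 members of the U5 part did not fall. Among U5 genes outside the member rule, *txnl4a* (-1.82), *cd2bp2* (-1.63) and *snrnp40* (-1.39) fell. In contrast, *snrnp200* (0.21), *eftud2* (-0.32) and *ddx23* (-0.30) did not pass. These U5 genes were read after their values were seen. The gene *prpf8* encodes the large protein at the catalytic centre of the spliceosome. Its level was 324, 328 and 311 CPM in mutant gonads and 186, 247 and 239 CPM in wild-type gonads, with every mutant sample above every wild-type sample. The log2 fold change of 0.52 (SE 0.21) missed the threshold, with an adjusted p of 0.0659 by edgeR's quasi-likelihood test, and ranged from 0.35 to 1.21 over the alternatives, with adjusted p-values from 0.00364 to 0.298. The gene *prpf6*, which bridges U5 and U4/U6, had 253, 156 and 262 CPM in mutant gonads and 254, 226 and 218 CPM in wild-type gonads, a log2 fold change of -0.05 (SE 0.26) with overlapping groups. Counts of *prpf4* over *prpf8* were 0.103, 0.0800 and 0.114 in mutant samples and 0.551, 0.453 and 0.508 in wild-type samples. Counts of *prpf31* over *prpf6* were 0.197, 0.269 and 0.201 in mutant samples and 0.520, 0.653 and 0.650 in wild-type samples.

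The last 4 members act on the assembled complex, and all 4 fell, with a median log2 fold change of -1.64 and no overlap. Of all tested genes of at least 10 CPM, 49.9% fell, with a median of -0.68. In 35.4% of all tested genes every mutant sample was below every wild-type sample. The level of *prpf38a*, a B-complex protein needed for activation, was 44.9, 52.0 and 41.8 CPM in mutant gonads and 183, 169 and 192 CPM in wild-type gonads, a log2 fold change of -1.97 (SE 0.18). Its relative *prpf38b* had 153, 158 and 172 CPM in mutant gonads and 482, 445 and 444 CPM in wild-type gonads, a log2 fold change of -1.50 (SE 0.21). The second-step factor *prpf18* had 22.9, 13.8 and 23.3 CPM in mutant gonads and 68.5, 63.3 and 73.1 CPM in wild-type gonads, a log2 fold change of -1.77 (SE 0.25). This was the group with the lowest summed level relative to wild type, at 274 ± 8.17 CPM in mutant gonads and 828 ± 30.2 CPM in wild-type gonads (SD, n = 3 each). The ubiquitin ligase gene *prpf19*, which names the Prp19 complex, had 43.7, 53.1 and 43.1 CPM in mutant gonads and 119, 118 and 129 CPM in wild-type gonads, a log2 fold change of -1.39 (SE 0.17).

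How many of these calls stand depended on the scaling between libraries. With the library totals alone, the median log2 fold change of all tested genes was 0.65 in place of 0.23, and 14 members fell and 1 rose, while 18.6% of all tested genes fell and 41.1% rose. With upper-quartile factors the median of all genes was 0.92, and 16 members fell and 6 rose (*prpf39*, *prpf8*, *lsm7*, *sf3b1*, *sf3b6* and *snrpf*), while 19.9% of all tested genes fell and 49.0% rose. As a share of the 38 members, 36.8% fell with library totals and 42.1% with upper-quartile factors. A scaling factor shifts all genes of a library alike, so the median of the members minus the median of all genes was bound to stay close, at -1.27 with TMM factors, -1.22 with library totals and -1.26 with upper-quartile factors. Against genes of at least 10 CPM the same difference was -0.36 with TMM factors, -0.32 with library totals and -0.36 with upper-quartile factors.

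Under all 13 alternatives 14 members were lower past the threshold. They were *snrpb* of the Sm ring, *lsm2* of the LSm ring, *snrpa* and *snrpc* of U1, *snrpa1*, *snrpb2*, *sf3b4* and *sf3b5* of U2, *prpf4* and *prpf31* of the tri-snRNP, and all 4 of *prpf38a*, *prpf38b*, *prpf18* and *prpf19*. With library totals and upper-quartile factors set aside, 23 members were lower under every alternative. The calls on *lsm3*, *lsm4*, *lsm8*, *prpf3*, *sf3a2*, *sf3b2*, *sf3b3*, *snrpd2*, *snrpd3*, *snrpe* and *snrpg* were lost under both of these scalings, and those on *sf3a1* and *sf3a3* with library totals only. The genes of the Sm and LSm rings were the least stable of the groups, with 1 of 7 in each lower under every alternative.

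**Figure D3:**
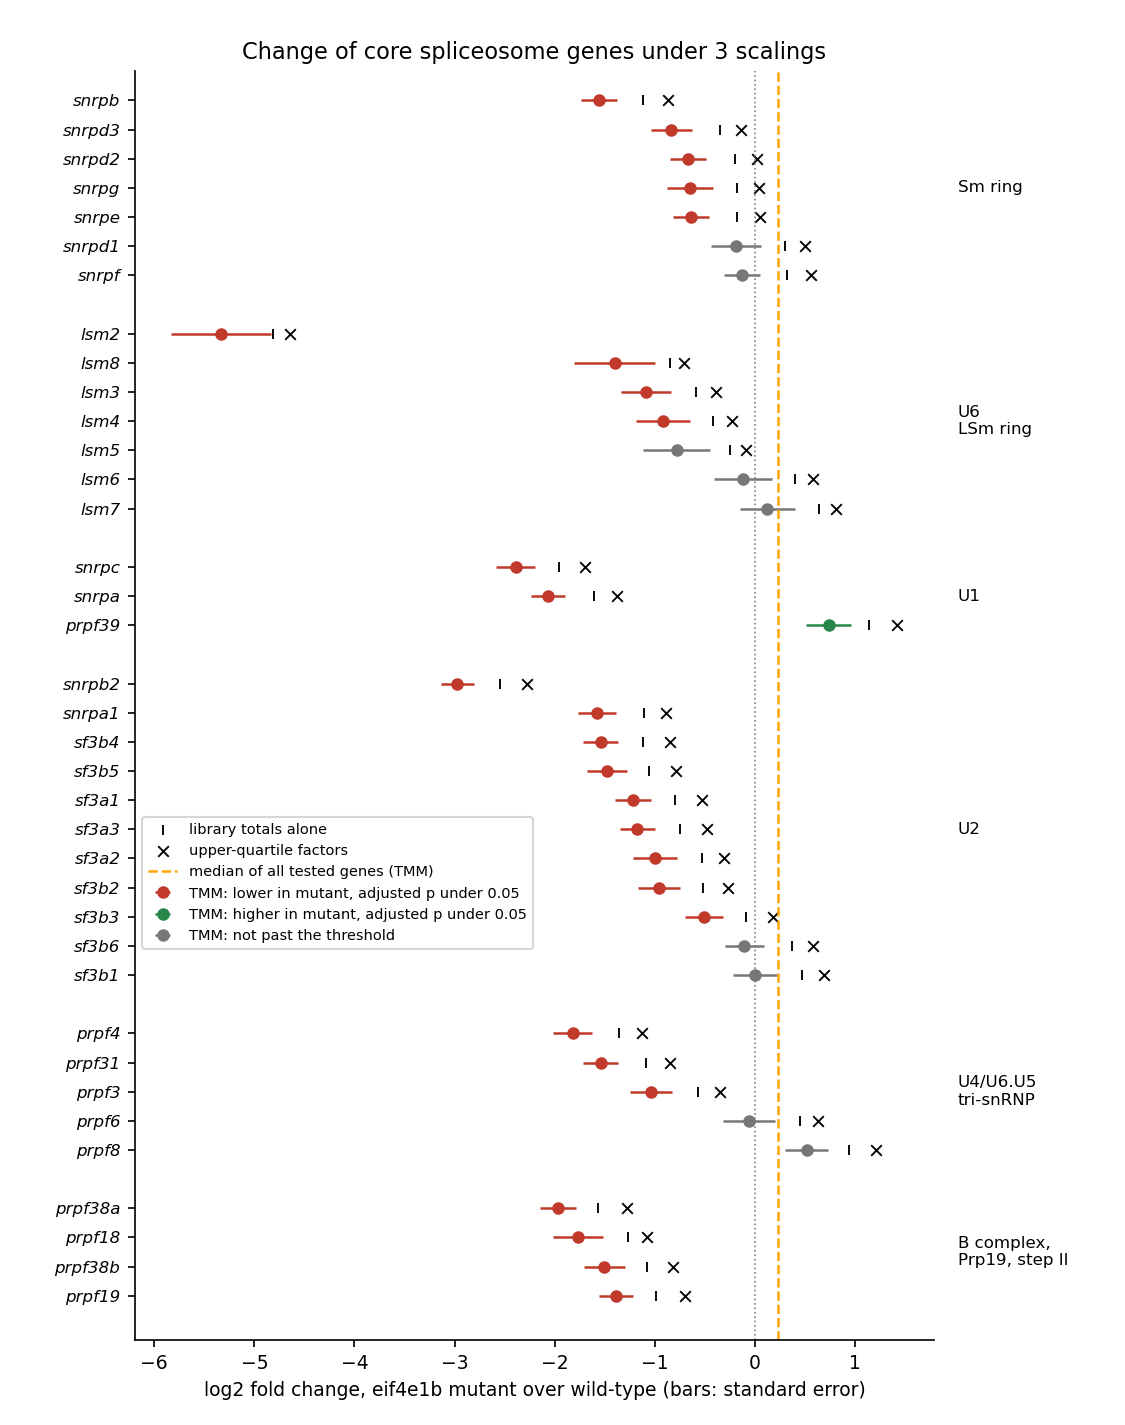
Log2 fold change (mutant over wild-type gonads) of 37 of the 38 tested core spliceosome genes with TMM factors (points with SE, red for lower and green for higher past an adjusted p of 0.05, grey for neither), with library totals alone (ticks) and with upper-quartile factors (crosses). The dashed line is the median of all tested genes with TMM factors (0.23). Both of these scalings move the genes to the right, and with upper-quartile factors *snrpd2*, *snrpg*, *snrpe* and *sf3b3*, which were called lower with TMM factors, pass to the right of 0, as do *snrpf*, *snrpd1*, *lsm6*, *sf3b6* and *prpf6*, which were not called, while *lsm2*, *snrpb2*, *snrpc* and *snrpa* stay at -1.37 or lower.

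Genes of the splicing pathway outside the member rule were mostly lower as well. In 6 lists with 114 tested genes in all, 86 fell and 4 rose, with a median log2 fold change of -1.22. These lists were read with TMM factors only. With those factors 32.0% of all tested genes fell, against 18.6% with library totals and 19.9% with upper-quartile factors. None of these genes is a member, and 3 of them stand in more than 1 list. Of the 114 genes, 75.4% fell, and 109 averaged at least 10 CPM, a level at which 49.9% of all tested genes fell. Of 28 genes listed as snRNP proteins with other names, 20 fell and 1 rose, with a median of -1.20. In this list *naa38* had the smallest p (log2 fold change -2.36). Its product has an LSm domain but is not an established snRNP protein. The gene that rose was *luc7l3*, a U1-associated factor (0.48). The U5 helicase gene *snrnp200*, a direct partner of PRPF8, had a log2 fold change of 0.21 (SE 0.22) and did not pass. The U1-70K gene *snrnp70* had -0.23 (SE 0.16) and did not pass either, beside the -2.39 and -2.07 of the 2 other U1-specific proteins. The thioredoxin-like U5 gene *txnl4a* fell by 1.82 on the log2 scale. These 3 genes were picked for their place in the same particles after their values were seen.

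The lists differed in how much they moved. All 19 genes of snRNP assembly and transport fell, with a median of -1.79. The smallest p was that of *ncbp2*, the small subunit of the nuclear cap-binding complex (-2.30), and the list held *smn1*, the core of the complex that loads Sm rings onto snRNA (-1.69, SE 0.17), also named after its value was seen. The level of *smn1* was 53.0, 50.1 and 46.3 CPM in mutant gonads and 167, 152 and 165 CPM in wild-type gonads, so the groups were far apart. Of 26 genes of the Prp19 complex and the catalytic steps, 23 fell and none rose (median -1.18), and *bcas2*, a Prp19 complex subunit, had the smallest p (-2.09). Of 15 genes for recognition of the branch point and 3′ splice site, 10 fell and none rose (median -0.63), and the smallest p was that of *u2af1*, which reads the 3′ splice site (-1.16). Of 10 minor spliceosome genes, which serve a rare class of introns, 7 fell and none rose (median -1.22), and *scnm1* had the smallest p (-3.12).

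The SR proteins, which bind exons and guide splice-site choice, had genes in both directions. Of 19 tested, 10 fell (52.6%) and 3 rose, with a median of -0.88, and the share that fell was close to the 49.9% of all genes of at least 10 CPM. The smallest p among those that fell was that of *srsf10b*, at 22.2, 24.8 and 22.7 CPM in mutant gonads and 81.6, 90.8 and 93.5 CPM in wild-type gonads (-1.93, SE 0.17). The genes that rose were *srsf5a* (1.25, SE 0.19), *srsf5* (1.16, SE 0.19) and *srsf1b* (0.92, SE 0.21). The level of *srsf5a* was 103, 114 and 104 CPM in mutant gonads and 53.8, 38.4 and 42.5 CPM in wild-type gonads, without overlap.

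**Figure D4:**
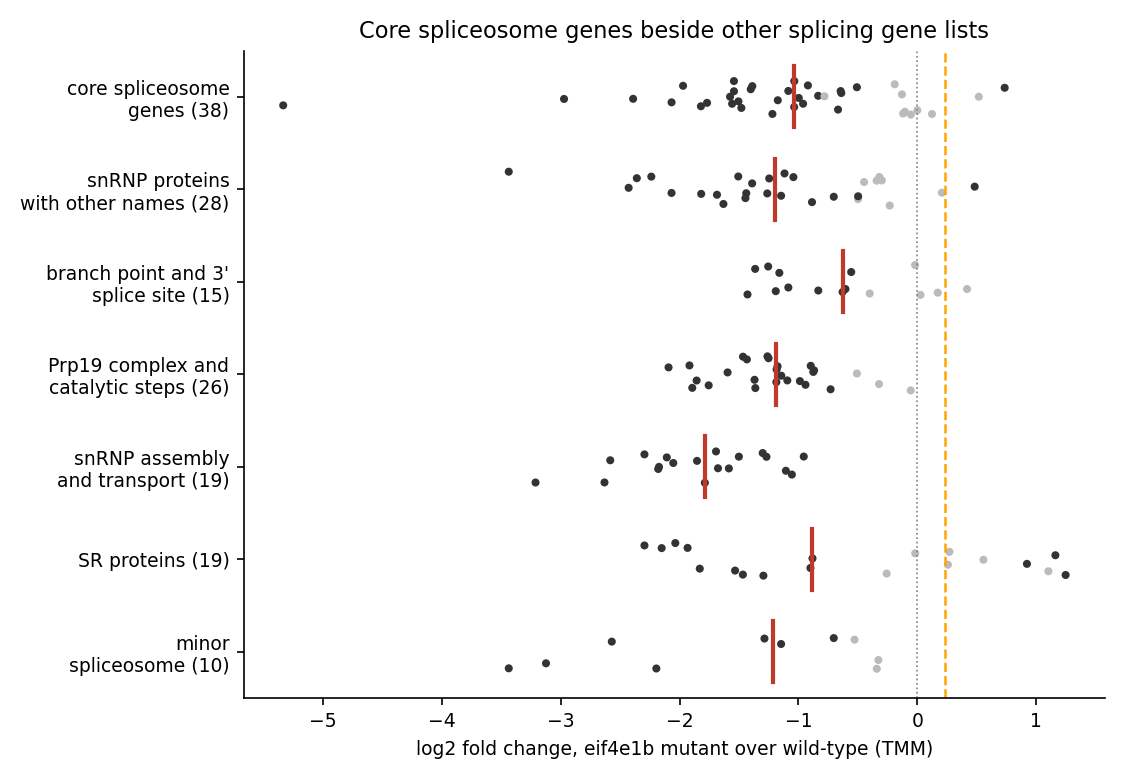
Log2 fold change (mutant over wild-type gonads, TMM factors) of the 38 tested core spliceosome genes beside 6 lists of other splicing genes, with the number tested in brackets. Each point is a gene, black where the adjusted p was under 0.05 and grey where it was not, red bars are list medians and the dashed line is the median of all tested genes (0.23). The list medians run from -1.79 for snRNP assembly and transport to -0.63 for branch point and 3′ splice site, and genes to the right of 0 past the threshold are *prpf39*, *luc7l3* and 3 SR protein genes.

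Genes of S phase and mitosis were mostly lower in mutant gonads as well. For scale, 32.0% of all tested genes fell and 37.5% rose. Of those of at least 10 CPM, 49.9% fell and 22.6% rose. Of 22 S phase genes, 20 fell and 2 rose, with summed levels of 1188 to 2181 CPM in mutant samples and 6976 to 7439 CPM in wild-type samples. The S phase genes that rose were *mcm3* (log2 fold change 3.22) and *mcm6* (3.44), whereas the paralog *mcm6l* fell (-4.57). Of 20 genes of mitosis, 18 fell, with 830 to 2264 CPM in mutant samples and 8641 to 9201 CPM in wild-type samples. Whether these levels reflect dividing cells or transcripts held in oocytes was not tested. Markers shared by germ cells of both sexes overlapped between genotypes in their summed levels, and some also singly, such as *piwil2* and *tdrd1*. The sums were 1782 to 4124 CPM in mutant samples and 2910 to 4040 CPM in wild-type samples. Of these 12 genes, 4 fell, 2 rose and 6 did not pass. Those that fell were *ca15b* (log2 fold change -6.45), *nanos3* (-5.77), *dnd1* (-1.56) and *dazl*. Those that rose were *nanos2* (3.27) and *ddx4* (1.64). Of 12 genes of meiotic prophase 5 rose and 1 fell, and of 14 spermatid and sperm genes 8 rose and 1 fell. The part of the lower oocyte markers, of the lower S phase and mitosis genes and of the other-tissue RNA in the lower spliceosome levels was not tested.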

How the data were processed

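RNA-seq libraries of juvenile gonads were analysed, 3 *eif4e1b* mutant and 3 wild-type, with 3 gonads per sample. The authors made stranded libraries depleted of ribosomal RNA, sequenced them on an Illumina instrument, mapped reads to GRCz11 and deposited raw read counts, whole numbers per gene, 1 table a sample, with no normalization. The submitters' processing notes name Trim Galore 0.5.0, Bowtie2 2.3.4.1, featureCounts, Subread 1.6.2, DESeq2 1.18.1 and R 3.4.1. The annotation, the strand setting of the counting and the handling of multi-mapping reads are not given in the sources used here, so reads of overlapping or antisense genes could not be told apart.

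Symbols were found for 29372 of 32520 genes, 29201 of them from a table of gene names. Members and lists were chosen with earlier results of these data known. Mutant and wild-type counts were compared by the two-sided quasi-likelihood test of edgeR 4.0.16 (R version 4.3.3). Settings were TMM factors, the default filter (minimum count 10, minimum total 15) and Benjamini-Hochberg adjustment over 20091 genes, with a threshold of 0.05. The SE is the log2 fold change divided by the root of F. Values per sample are TMM-CPM per 1000000 counts, which are not corrected for gene length, so levels were not compared between genes. Replicates differed beyond sampling noise (chi-square per degree of freedom 10.4 to 149), and nothing states that the pools came from separate clutches, so p-values measure the spread between these samples. A floor of 3 counts corresponded to 0.260 to 0.465 CPM, which covers counting error only.

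Genes were named by a rule: in each snRNP group and direction, up to 3 members with the smallest p and no overlap, members against the direction of their group, members that were not tested, shared symbols, and members whose call depended on the scaling; in each other splicing list, the gene with the smallest p in each direction. Further members are given for completeness, and 1 tested member, which is included in the counts, is not reported here by name. Alternatives were DESeq2 size factors, library totals, upper-quartile factors, TMM factors without other-tissue genes, no filter, a replicate block, each sample left out, and the Wald test of DESeq2 1.42.0. The scripts were tested on simulated counts with 200 changed genes, equal numbers of them raised and lowered. In the data 69.5% of the 20091 tested genes were called, so these simulated counts cannot decide between the scalings.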

Additional observations from a re-analysis of the deposited data

How the results depend on the processing

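The number of members called lower was 28 and moved to 14 with library totals and 16 with upper-quartile factors, and stayed from 24 to 28 when each sample was left out in turn. The number called higher was 1, 6 with upper-quartile factors, 0 with the replicate block and 0 to 1 when a sample was left out. Over all tested genes, 3740 were lower with library totals and 4001 with upper-quartile factors, against 6437 with TMM factors. The median log2 fold change of the members was -0.58 with library totals, -0.34 with upper-quartile factors, -1.19 with the Wald test of DESeq2, and -1.25 to -0.91 when a sample was left out. The median of all tested genes was 0.65 with library totals, 0.92 with upper-quartile factors, 0.17 without a filter, 0.0693 with the Wald test, and 0.0885 to 0.226 when a sample was left out. The gap between the medians was -1.34 to -1.09 when a sample was left out. Upper-quartile factors reversed *snrpd2* (0.0252), *snrpg* (0.0431), *snrpe* (0.0511), *snrpf* (0.56), *sf3b3* (0.18) and *sf3b6* (0.58). The sign also changed in *snrpd1*, *lsm6* and *prpf6*, which were not called under any setting. Library factors shift all genes by construction. DESeq2 size factors and TMM factors without other-tissue genes kept all 38 members on their side of the threshold. The latter factors were close to the main ones (0.784 against 0.788 in mutant 2), with library sizes unchanged. That setting therefore could not test the part of the other-tissue RNA.

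Genotypes share replicate numbers. The deviations of same-numbered samples correlated at 0.12, -0.20 and -0.05, and those of other pairs ranged from -0.40 to 0.40. These values gave no sign of pairing by number, but cannot show whether samples shared a clutch or batch. A fit with the replicate number as a block called 27 members lower and 0 higher, 5887 of all tested genes lower and 6625 higher. Of the members, *sf3b3*, *snrpg* and *prpf39* lost their call there and *lsm5* gained a call as lower.

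The mutant libraries were less deep than the wild-type libraries, and 3 samples per genotype limit the calls near the threshold. Which *eif4e1b* allele the samples carried, and the share of each cell type in them, were not analysed here.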

Other observations

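Genes of the LSm family outside the U6 ring were read after their values were seen. The gene *lsm1*, whose product replaces LSm8 in the cytoplasmic ring, had 10.8, 9.46 and 8.94 CPM in mutant gonads and 72.9, 60.9 and 65.8 CPM in wild-type gonads. Its log2 fold change was -2.77 (SE 0.19), with no overlap between the groups. The P-body gene *lsm14b* had 33.4, 4.96 and 6.40 CPM in mutant gonads and 1007, 938 and 1052 CPM in wild-type gonads, and its log2 fold change of -6.06 (SE 0.88) was lower than that of any spliceosome member. As for *lsm2*, the highest mutant sample was mutant 1. The gene *lsm11*, whose product is part of the U7 snRNP that cuts the ends of histone mRNAs, had 19.6, 8.84 and 16.8 CPM in mutant gonads and 228, 240.0 and 252 CPM in wild-type gonads, a log2 fold change of -3.99 (SE 0.34). Its U7 partner *lsm10* had 2.69, 2.79 and 4.40 CPM in mutant gonads and 2.54, 9.12 and 8.39 CPM in wild-type gonads, where the groups overlapped and the log2 fold change of -1.02 (SE 0.54) did not pass the threshold. The genes *lsm12a* (-2.04, SE 0.18) and *lsm12b* (-1.33, SE 0.16) fell as well.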
